A study of Danio rerio with 16 samples.

Results

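The genes neurog1, ascl1b, olig2 and olig3 encode transcription factors of the basic helix-loop-helix (bHLH) class that act in the early nervous system. They were followed in whole zebrafish embryos at 11 hours post fertilization (hpf), after retinoic acid (RA) signalling had been raised or blocked. All probe sets that the platform annotation gives to these symbols were taken: 5 probe sets for 4 genes, of 15502 probe sets without controls and 8793 genes with a single symbol. There was 1 probe set each for neurog1 (Dr.555.1.S1_at), ascl1b (Dr.318.1.A1_at) and olig2 (Dr.3920.1.S1_at). The olig3 gene had 2 (Dr.4155.1.A1_at, called the first below, and Dr.4155.2.A1_at, the second).

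The RA group received 0.33 µM all-trans RA from 6.5 hpf, an exposure of 4.5 hours. A further 2 groups received AGN193109, an antagonist of the RA receptors that the sample titles spell AGN193019, at 10 µM or at 1 µM from 5.25 hpf, an exposure of 5.75 hours. The control group received the solvent, 2% dimethyl sulfoxide (DMSO), from 5.25 hpf. RA therefore began later and lasted for a shorter time than the DMSO and antagonist exposures. The compound and the timing cannot be told apart in any comparison of the RA group. The labels as used here hold no DMSO percentage for the RA and antagonist groups, so whether their solvent matched the control is not known. Each group held 4 samples that the titles number as biological replicates. All embryos were dechorionated, wild type and bred from AB/WIK hybrid parents, and each sample was hybridised to its own Affymetrix array. The doses are those of the titles and the design, since the treatment protocol gives them in mM.

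Proneural bHLH factors bind DNA as dimers with the widely expressed E proteins and drive neural plate cells towards a neuronal fate. Id proteins capture the E proteins and so hold the proneural factors back. Cells that take up the neuronal fate display Delta ligands, which activate Notch in their neighbours. Some bHLH repressors of the Hairy/E(spl) class then keep those neighbours as progenitors. RA is made in the trunk mesoderm at this stage and reaches the adjoining hindbrain and spinal cord, where it patterns the neural plate and favours neuronal differentiation. The olig factors belong to the same bHLH superfamily and mark progenitor domains of the neural tube, where olig2 is best known for the motor neuron and oligodendrocyte domain and olig3, from work in mouse, for dorsal domains.

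The deposited values had already been normalized between arrays, and the median intensities of the 16 arrays were 72.8 to 78.3. Such medians do not show how alike the arrays were before normalization. Arrays of a group correlated at r of 0.967 or more over the 11843 probe sets tested. Known RA-responsive genes changed with the treatments. The retinaldehyde reductase gene dhrs3a rose under RA (log2 difference 3.91 ± 0.17, SE) and was at least 7.20-fold lower with the antagonist at either dose. The RA-degrading enzyme gene cyp26a1 rose under RA by 3.47 ± 0.27, while its differences of -0.97 ± 0.27 at 10 µM and -0.44 ± 0.27 at 1 µM of the antagonist were not called. With array weights that at 10 µM was called (-1.04, adjusted p = 0.00906). The tissue is whole embryo, so fewer cells of a type and less RNA per cell cannot be told apart in any value below. Among 6 markers of epidermis none was called in any comparison with DMSO by limma, and 1, 0 and 0 had an unadjusted p under 0.05 under RA and at 10 µM and 1 µM of the antagonist. Their summed intensity was 46528 to 62918.5 on RA arrays and 46902 to 50998 on DMSO arrays.

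Values below are log2 of the deposited intensity, and differences are between group means of these. A probe set was called when limma, fitted to all 16 arrays, gave an adjusted p (Benjamini-Hochberg over the 11843 probe sets) under 0.05. The 5 probe sets of the members passed the filter on low values, which asks for more than log2 4 on at least 4 arrays. Both olig3 probe sets passed it through the 12 arrays outside the RA group.

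By the side of DMSO on which their group means lay, the members split into 3 genes and a single gene opposite to them. The 3 genes were not called together in any comparison with DMSO. Under RA, olig2 and ascl1b rose and olig3 fell. With the antagonist, neurog1 fell at both doses. The neurog1, ascl1b and olig2 means stood in the order RA, DMSO, antagonist at 1 µM, antagonist at 10 µM, from high to low, and both olig3 probe sets had the order antagonist at 1 µM, antagonist at 10 µM, DMSO, RA. Over all tested probe sets these orders were held by 5.74% and 5.41%.

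**Figure D1:**
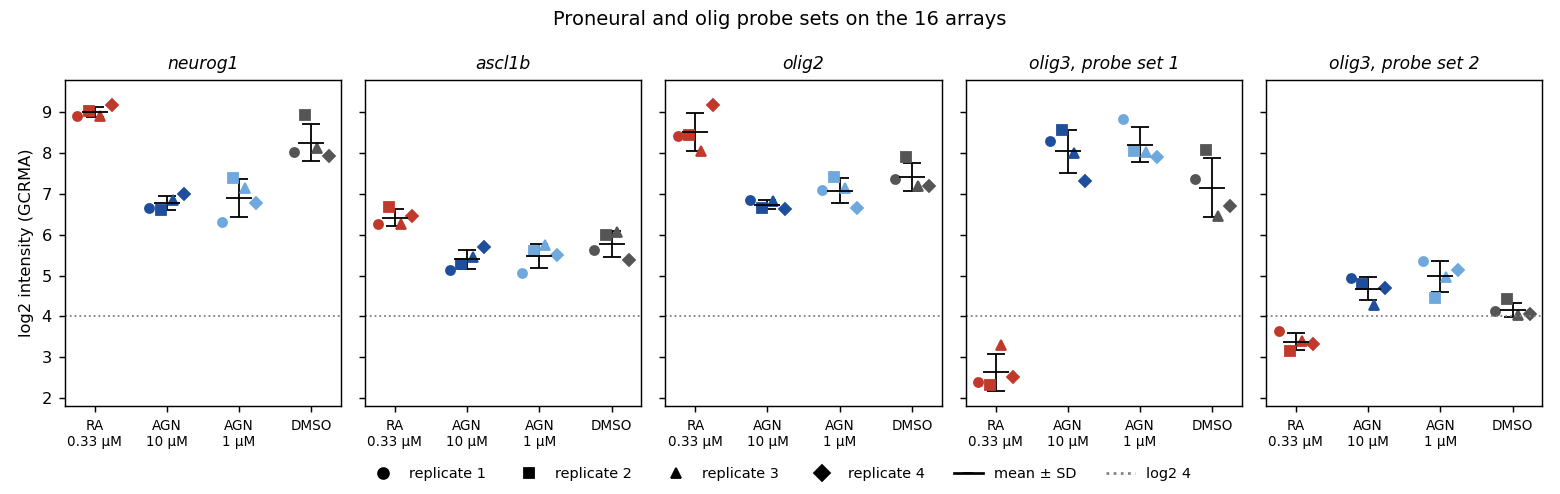
Log2 intensity of each member probe set on every array, by group, with the group mean and SD (n = 4 arrays per group) in black and the low-value threshold of log2 4 as a dotted line. On the RA arrays neurog1, ascl1b and olig2 have their highest group means and both olig3 probe sets lie below log2 4. Heights of different probe sets are not comparable with each other.

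The proneural gene neurog1 is needed in zebrafish for the first neurons of the cranial ganglia and for sensory neurons of the spinal cord. Its log2 intensities were 8.92, 9.02, 8.91 and 9.19 on the RA arrays (replicates 1 to 4), 6.66, 6.62, 6.86 and 6.99 with the antagonist at 10 µM, 6.32, 7.39, 7.15 and 6.79 at 1 µM, and 8.02, 8.93, 8.13 and 7.94 on the DMSO arrays. All 8 antagonist arrays lay below all DMSO arrays. The RA arrays lay above 3 of the DMSO arrays, while DMSO replicate 2 reached into their range.

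The fall of neurog1 with the antagonist at 10 µM was 1.47 ± 0.22, which is 2.77-fold (adjusted p = 0.00319), to a mean of 6.78 ± 0.18 (SD, n = 4), against 8.25 ± 0.46 with DMSO. In this comparison 0.397% of all tested probe sets were called (0.312% lower), and neurog1 was the only called probe set among the 5 members. Its difference took rank 15 among all falls. At 1 µM neurog1 fell by 1.34 ± 0.22, which is 2.53-fold (adjusted p = 0.0167), to a mean of 6.91 ± 0.47, where 0.144% of all probe sets were called (0.118% lower) and the difference took rank 7 among the falls. The call at 10 µM held under every alternative that was run. The call at 1 µM was lost without replicate 4 of that group (adjusted p = 0.0519) and when only its 8 arrays were fitted (adjusted p = 0.424).

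Under RA neurog1 was not called, with a difference of 0.76 ± 0.22 (95% interval 0.28 to 1.23, adjusted p = 0.0610) between 9.01 ± 0.13 with RA and 8.25 ± 0.46 with DMSO. It was called under 3 alternatives. Without DMSO replicate 2 the difference was 0.98 with an adjusted p of 0.00506. With the replicate number as a block the adjusted p was 0.0340, and with array weights it was 0.00724. Whether the numbers pair these arrays is uncertain. Deviations from group means correlated at 0.134 to 0.336 for same-numbered RA and DMSO arrays, and up to 0.300 for others.

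The zebrafish gene ascl1b is a proneural factor of the achaete-scute family that is used in the fore- and hindbrain. Its values were 6.27, 6.69, 6.26 and 6.46 with RA, 5.15, 5.29, 5.46 and 5.69 with the antagonist at 10 µM, 5.07, 5.59, 5.75 and 5.49 at 1 µM, and 5.64, 6.002, 6.08 and 5.39 with DMSO. The RA arrays lay above all others, and the antagonist arrays overlapped the DMSO arrays at both doses.

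Under RA ascl1b rose by 0.64 ± 0.18, which is 1.56-fold (adjusted p = 0.0460), to 6.42 ± 0.20, against 5.78 ± 0.32 with DMSO. This call was close to the threshold. It was lost without any single array except DMSO replicates 2 and 3 (adjusted p from 0.0615 to 0.172 in the 6 losses), and also without the filter (0.0555), after quantile normalization (0.0592), with a trended and robust variance (0.0521) and when only the RA and DMSO arrays were fitted (0.0721). With the antagonist the differences were -0.38 ± 0.18 (95% interval -0.76 to 0.00344, adjusted p = 0.973) at 10 µM and -0.30 ± 0.18 (-0.68 to 0.08, adjusted p = 0.747) at 1 µM, neither of them called.

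The gene olig2 marks the ventral domain that gives rise to motor neurons and later to oligodendrocytes. It had 8.43, 8.44, 8.05 and 9.17 with RA, 6.84, 6.65, 6.82 and 6.62 with the antagonist at 10 µM, 7.10, 7.42, 7.14 and 6.66 at 1 µM, and 7.37, 7.91, 7.19 and 7.19 with DMSO. Every RA array was higher than every DMSO array and every array of the antagonist at 10 µM was lower, while the arrays at 1 µM overlapped those with DMSO.

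The rise of olig2 under RA was 1.11 ± 0.22, which is 2.16-fold (adjusted p = 0.00300), to 8.52 ± 0.47, against 7.42 ± 0.34 with DMSO. It remained called under every alternative that was run, with adjusted p from 0.00107 to 0.0225. With the antagonist at 10 µM the difference was -0.68 ± 0.22 (95% interval -1.14 to -0.22), with an unadjusted p of 0.00623 and an adjusted p of 0.542. At 1 µM it was -0.33 ± 0.22 (-0.79 to 0.13, adjusted p = 0.752).

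The gene olig3 moved the other way and had the largest change of the 4. The first probe set had 2.40, 2.32, 3.30 and 2.52 with RA, 8.30, 8.56, 8.005 and 7.32 with the antagonist at 10 µM, 8.84, 8.05, 8.03 and 7.91 at 1 µM, and 7.36, 8.08, 6.45 and 6.71 with DMSO. All RA arrays were far below all other arrays and under the low-value threshold. The antagonist arrays overlapped the DMSO arrays at both doses, and DMSO replicate 2 (8.08) lay above 5 of the 8 antagonist arrays.

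With all RA arrays below log2 4, the fall of olig3 is given as a bound: it was at least 8.89-fold lower with RA (adjusted p = 5.80e-08), with measured means of 2.63 ± 0.45, against 7.15 ± 0.73 with DMSO. The size depends on how low values are treated: the fitted difference was -4.52 ± 0.34, and -2.83 when 16 was added to each intensity before the log. The call held under every alternative that was run.

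The second olig3 probe set was dim, with 3.65, 3.15, 3.39 and 3.33 with RA, 4.95, 4.78, 4.27 and 4.71 with the antagonist at 10 µM, 5.35, 4.46, 4.97 and 5.14 at 1 µM, and 4.12, 4.42, 4.03 and 4.07 with DMSO. It was called lower under RA as well, at least 1.12-fold against the threshold of log2 4 (fitted difference -0.78 ± 0.19, adjusted p = 0.0142). That call was lost without DMSO replicate 2 (adjusted p = 0.0558) or RA replicate 2 (0.0508) and with 16 added to the intensities (0.107). Both olig3 probe sets thus had the same direction, and their sizes differed.

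With the antagonist neither olig3 probe set was called. At 10 µM the first had a difference of 0.89 ± 0.34 (95% interval 0.17 to 1.61, adjusted p = 0.762) and the second 0.52 ± 0.19 (adjusted p = 0.696). At 1 µM the first had 1.06 ± 0.34 (0.34 to 1.78, adjusted p = 0.695) and the second 0.82 ± 0.19 (unadjusted p = 0.000391, adjusted p = 0.154). The second probe set's arrays at 1 µM all lay above its DMSO arrays. Without replicate 2 of the 1 µM group its difference was 0.99 with an adjusted p of 0.0351, so that array decides whether it is called.

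In counts, 4 of the 5 member probe sets, which are of 3 genes, were called under RA, 2 higher and 2 lower. The share of all tested probe sets was 5.75%, with 3.18% higher and 2.57% lower. The members were chosen with earlier results of these data known. The shares over all probe sets, here and below, are therefore no test of the members as a set. The RA arrays did not overlap the DMSO arrays for 4 of the 5, where this held for 10.1% of all probe sets. With the antagonist 1 of 5 was called at each dose, and 2 of 5 had no overlap at each dose, where 5.45% of all probe sets had none at 10 µM and 2.1% at 1 µM. An unadjusted p under 0.05 was found for 4 of the 5 at 10 µM and 3 at 1 µM, where 5.15% and 6.28% of all probe sets had one. These comparisons share the DMSO arrays, so that their values for a gene are not independent.

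**Figure D2:**
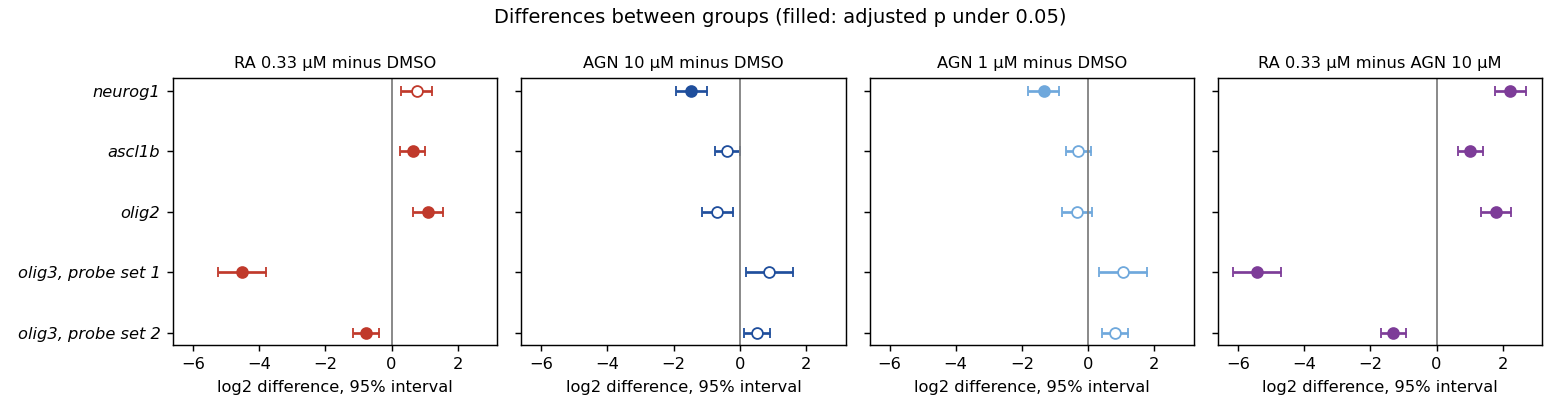
Differences of group means (log2) for the member probe sets with 95% intervals from the model, for RA minus DMSO, antagonist at 10 µM minus DMSO, antagonist at 1 µM minus DMSO and RA minus antagonist at 10 µM. Filled points have an adjusted p under 0.05, and between RA and the antagonist at 10 µM all 5 points are filled.

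The direct difference of means between RA and the antagonist uses no DMSO array. Its SE and adjusted p come from the model of all 16 arrays, in which the DMSO arrays share the estimate of spread. RA began later than the antagonist as well, so compound and timing cannot be told apart here either. All 5 member probe sets were called between RA and the antagonist at 10 µM, 3 higher and 2 lower, where the share over all probe sets was 8.85% (4.79% higher, 4.06% lower). The gene neurog1 was 4.68-fold higher with RA (2.23 ± 0.22, adjusted p = 1.45e-06), olig2 3.46-fold higher (1.79 ± 0.22, adjusted p = 1.47e-05) and ascl1b 2.03-fold higher (1.02 ± 0.18, adjusted p = 0.000844). The first olig3 probe set was at least 16.5-fold lower with RA (adjusted p = 3.72e-09) and the second at least 1.60-fold lower (adjusted p = 9.04e-05). No array of RA overlapped an array of the antagonist at 10 µM for any of the 5, where 13.8% of all probe sets had no overlap.

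Against the antagonist at 1 µM the calls were likewise 3 higher and 2 lower, where 7.59% of all probe sets were called (3.66% higher and 3.93% lower) and 9.57% had no overlap. The RA group was 4.28-fold higher for neurog1, 2.72-fold higher for olig2 and 1.92-fold higher for ascl1b, and at least 18.5-fold lower for the first olig3 probe set. These calls held for all 5 probe sets, against either dose, under every alternative that gave a value.

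The antagonist doses were not told apart in the members. Between 10 µM and 1 µM limma called 0 of the 5 (0 also at an unadjusted p under 0.05), where it called 0.00844% of all tested probe sets. The arrays of the doses overlapped for all 5, where 4.96% of all probe sets had no overlap. The difference, 10 µM minus 1 µM, was -0.13 for neurog1 (95% interval -0.60 to 0.34), -0.08 for ascl1b (-0.46 to 0.31), -0.35 for olig2 (-0.81 to 0.11) and -0.16 for the first olig3 probe set (-0.88 to 0.56). These intervals leave room for differences of 0.60 on the log2 scale in neurog1, so the doses are not shown to act alike. In the order of group means the antagonist doses are therefore neighbours that did not differ beyond their spread, for all 4 genes. The same holds for ascl1b and olig2 between the antagonist at 1 µM and DMSO, whose 95% intervals include 0. The neighbours RA and DMSO for neurog1, and the antagonist at 10 µM and DMSO for both olig3 probe sets, were not called, although their unadjusted 95% intervals lie above 0.

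Within groups the members deviated in the same direction on some arrays and not on others, and how far they vary together was not tested. On DMSO replicate 2, neurog1, olig2 and both olig3 probe sets had the highest value of the 4 DMSO arrays, 0.67, 0.49, 0.93 and 0.26 above their group means, and ascl1b the next to highest (0.23 above). DMSO replicate 4 was the lowest of its group for neurog1, ascl1b and olig2 (-0.31, -0.39 and -0.22). Replicate 1 of the antagonist at 1 µM was the lowest of its group for neurog1 and ascl1b (-0.59 and -0.41) and the highest for both olig3 probe sets (0.63 and 0.37). The genes that responded in the same direction thus did not always deviate together: on RA replicate 4, olig2 was 0.65 above its mean and ascl1b 0.04. On replicate 4 of the antagonist at 10 µM, neurog1 deviated by 0.21 and olig2 by -0.11.

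**Figure D3:**
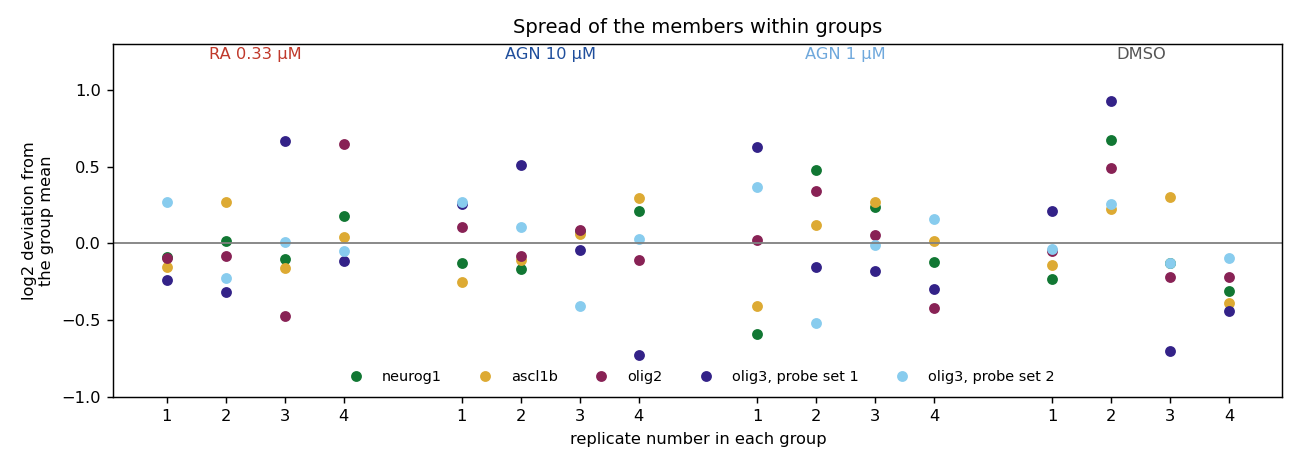
Deviation of each member probe set from its group mean (log2) on each array, by group and replicate number. DMSO replicate 2 has all 5 points above zero, from 0.23 to 0.93.

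The partners and brakes of the proneural factors were taken as lists. Of 7 tested E protein and Id genes, 2 rose under RA and 1 fell (median log2 difference 0.02, against 0.01 over all tested probe sets). Both Id genes that rose encode inhibitors of proneural factors: id2b rose by 1.59 ± 0.17 (adjusted p = 5.95e-06) and id2a by 0.89 ± 0.17 (adjusted p = 0.00282). The remaining tested Id genes, id1 (-0.31), id3 (-0.26) and id4 (0.02), were not called under RA. The gene tcf12, which encodes an E protein, fell by 0.92 ± 0.18 (adjusted p = 0.00326). Of its 4 probe sets 3 were called lower under RA, and the fourth had a difference of -0.59 (adjusted p = 0.257). The second id2b probe set rose as well (1.35). With the antagonist limma called 0 of the 7 at either dose, and 0 at 10 µM and 1 at 1 µM had an unadjusted p under 0.05, this being tcf12 (0.58 ± 0.18, adjusted p = 0.695).

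Delta ligand genes are targets of proneural factors. Of 12 tested genes of Notch ligands, receptors and their modifiers, 0 rose and 1 fell under RA by limma (4 at an unadjusted p under 0.05, median 0.10). The gene that fell was lfng (-0.58 ± 0.12, adjusted p = 0.00418), which encodes a fringe enzyme that modifies Notch. Of the Delta genes, dlb had 8.62 ± 0.14 with RA, 7.48 ± 0.31 with the antagonist at 10 µM, 7.91 ± 0.42 at 1 µM and 7.99 ± 0.09 with DMSO. Its RA arrays all lay above its DMSO arrays and its arrays at 10 µM all below them. The differences of 0.63 ± 0.19 (adjusted p = 0.0603) and -0.50 ± 0.19 (adjusted p = 0.723) were not called, although that under RA was called after quantile normalization (adjusted p = 0.0450), with array weights (0.0178) and when only the RA and DMSO arrays were fitted (0.0103). A second, dimmer dlb probe set overlapped DMSO in both comparisons. It had 0.30 under RA (adjusted p = 0.582) and -0.27 at 10 µM (adjusted p = 0.9997). The gene dla had 0.34 ± 0.14 under RA (adjusted p = 0.300), which was called with array weights (0.0189) and without RA replicate 2 (0.0217). Another Notch ligand gene, jag2b, had 0.29 ± 0.13 under RA (adjusted p = 0.355), which was called with array weights (0.0215). At 10 µM and 1 µM of the antagonist limma called 0 of the 12, and 1 each had an unadjusted p under 0.05.

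The Hairy/E(spl) repressors were the list with the most falls among these partners: 5 of 12 fell under RA and 0 rose (median -0.51). The deepest were her5, which holds back neurogenesis at the zebrafish midbrain-hindbrain boundary, and her3, which in zebrafish represses neurog1 between the proneural domains. The her5 values averaged 4.47 ± 0.77 with RA and 8.82 ± 0.16 with DMSO (-4.35 ± 0.28, adjusted p = 7.00e-09). Those of her3 averaged 6.23 ± 0.57 with RA and 9.02 ± 0.43 with DMSO (-2.79 ± 0.30, adjusted p = 4.79e-06). With the antagonist at 10 µM her3 had 9.83 ± 0.29, above DMSO on all 4 arrays (0.81 ± 0.30). It was not called (adjusted p = 0.723), and its direction was opposite to that of neurog1. At 1 µM, where neurog1 was also called lower, the her3 difference was only 0.19 ± 0.30. It was not called, and the her3 arrays overlapped those with DMSO. Whether the changes of her3 and neurog1 are linked was not tested. The second her3 probe set was too dim to be tested.

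The other falls under RA in this list were those of hey2 (-1.03 ± 0.19), her7 (-0.86 ± 0.20) and her6 (-0.60 ± 0.15, adjusted p = 0.0227). The her7 gene belongs to the segmentation clock of the somites, and hey2 acts in vessel formation. Leaving out DMSO replicate 1 or 2, or RA replicate 1 or 3, ended the her6 call (adjusted p between 0.0554 and 0.0900). With the antagonist at 10 µM hey2 was the single rise among the 12 (1.10 ± 0.19, adjusted p = 0.0119), a call lost without DMSO replicate 2 or 4 (0.0553 and 0.0589) and when only these 2 groups were fitted (0.101). At this dose 3 of the 12 had an unadjusted p under 0.05. Among them her4.2 had -0.44 ± 0.20 (adjusted p = 0.915), a direction opposite to that of hey2 and her3. Under RA her4.2 had -0.43 ± 0.20 (adjusted p = 0.370). At 1 µM limma called 0 of the 12, and 1, hey2, had an unadjusted p under 0.05.

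**Figure D4:**
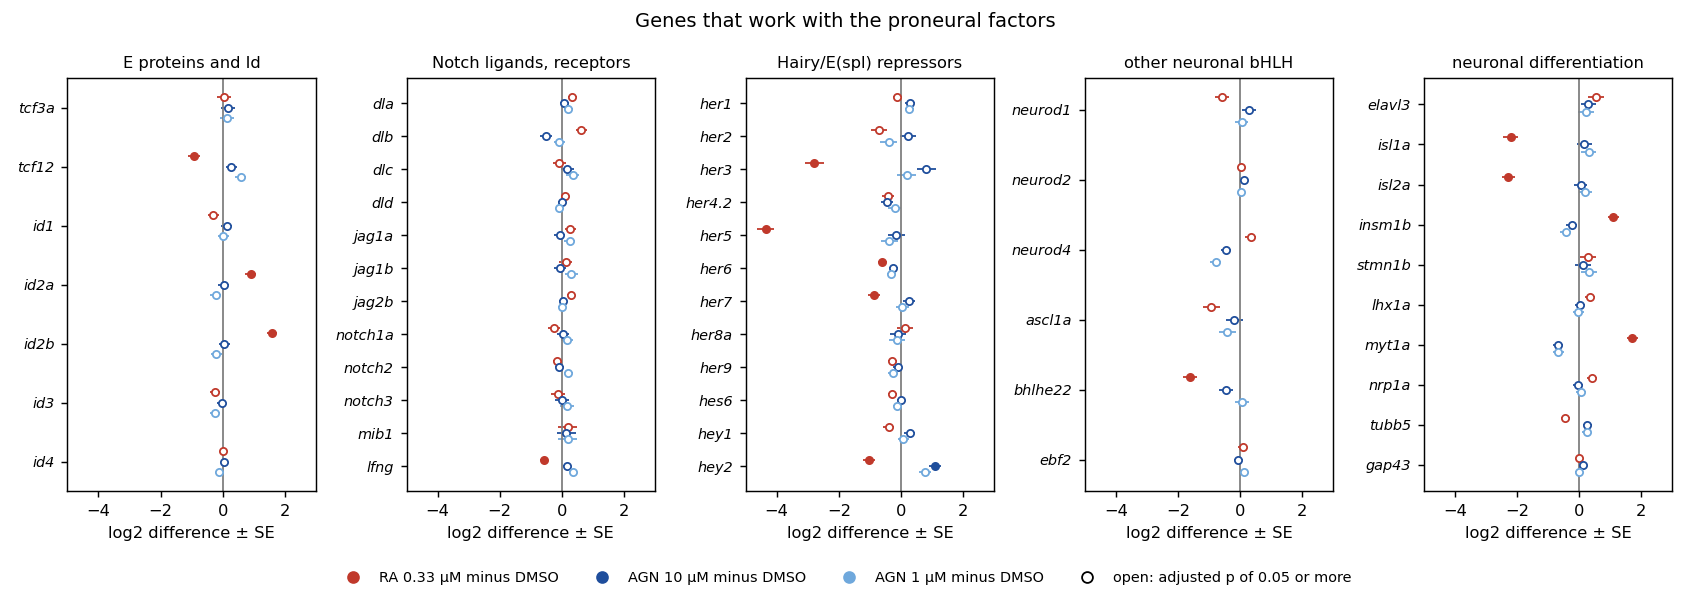
Differences of group means (log2, with SE) for the tested genes of 5 lists that surround the proneural factors, for RA minus DMSO, antagonist at 10 µM minus DMSO and antagonist at 1 µM minus DMSO. Filled points have an adjusted p under 0.05, and 5 of the 12 Hairy/E(spl) genes have a filled point to the left under RA.

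Among other factors of neurons, mostly but not all of the bHLH class, 6 of 12 measured genes passed the filter. Of these 1 fell under RA, bhlhe22, which is related to the olig genes (-1.62 ± 0.22, adjusted p = 7.01e-05). Its RA arrays (3.63 to 4.03) lay around the low-value threshold, so the size is uncertain. Among the alternatives the smallest fall was -0.99, and the call held. The paralogue of ascl1b, ascl1a, had -0.93 ± 0.28 under RA (adjusted p = 0.0655), a direction opposite to that of ascl1b. It was called lower with array weights (adjusted p = 0.0285), with the replicate block (0.0165) and without DMSO replicate 1 (0.0454) or RA replicate 2 (0.0230). The gene neurod1 had -0.58 ± 0.21 under RA (adjusted p = 0.166), and its RA arrays all lay below its DMSO arrays. That difference was called with array weights (adjusted p = 0.0435) and when only the RA and DMSO arrays were fitted (0.0460). The gene neurod4, which acts after the proneural genes, had -0.79 ± 0.16 with the antagonist at 1 µM (adjusted p = 0.0974) and -0.46 ± 0.16 at 10 µM (adjusted p = 0.685). Its arrays at 1 µM all lay below its DMSO arrays. Under RA neurod4 had 0.34 ± 0.16 (adjusted p = 0.415). With the antagonist limma called 0 of the 6 at either dose, and 1 at each dose, neurod4, had an unadjusted p under 0.05. Among those that did not pass were neurog3 and the atonal genes atoh1a and atoh7.

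Genes of neuronal differentiation moved in both directions under RA, with 2 of 10 tested genes higher and 2 lower (median 0.31). The zinc finger gene myt1a, which promotes the neuronal fate, rose by 1.71 ± 0.17 (adjusted p = 1.88e-06), to 9.61 ± 0.40 with RA, against 7.90 ± 0.12 with DMSO. It averaged 7.21 ± 0.23 and 7.23 ± 0.12 with the antagonist at 10 µM and 1 µM, below DMSO on all arrays but not called (adjusted p = 0.145 and 0.307), although with array weights it was called at 10 µM (adjusted p = 0.0396). The gene insm1b, a zinc finger factor of newborn neurons, rose under RA by 1.09 ± 0.18 (adjusted p = 0.000483). The LIM homeobox genes isl1a and isl2a, which mark early motor and sensory neurons, fell by 2.21 ± 0.24 and 2.29 ± 0.21. A second isl1a probe set fell less, by 0.94 ± 0.13 (adjusted p = 0.000103). With the antagonist limma called 0 of 10 at either dose (1 and 2 at an unadjusted p under 0.05).

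Genes listed for patterning the ventral neural tube around the olig2 domain did not follow olig2 under RA. Whole-embryo arrays do not show in which region a gene of this list changed. Of 14 tested, 7 fell under RA and 0 rose (median -0.52). Among them dbx1a fell by 3.55 ± 0.31, pax6a by 1.65 ± 0.32 and nkx2.9 by 1.26 ± 0.19, and nkx2.2b was at least 3.83-fold lower (adjusted p = 1.36e-08). The hedgehog ligand gene shhb fell by 0.59 ± 0.16 (adjusted p = 0.0379), a call lost without any single array except DMSO replicates 1 and 4 and RA replicate 2 (adjusted p from 0.0617 to 0.138), after quantile normalization (0.0505), with array weights (0.0588) and when only the RA and DMSO arrays were fitted (0.0611). With the antagonist limma called 0 of 14 (4 at 10 µM and 2 at 1 µM had an unadjusted p under 0.05). Array weights were looked at only for the 4 genes of this list with an unadjusted p under 0.05 at 10 µM. Of these, 3 were then called higher, nkx2.2a (adjusted p = 0.0147), gli3 (0.0285) and irx3a (0.0406), and shhb was not called.

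Around olig3, 8 of 13 tested genes of the dorsal neural tube and its neighbours fell under RA with olig3 and 1 rose (median -0.71). Some of these are better known from brain regions further forward, such as the midbrain and its boundary with the hindbrain: dmbx1a fell by 4.44 ± 0.19 and gbx2 by 3.36 ± 0.24, and barhl2 was at least 2.34-fold lower. Of the dorsal genes proper, zic2a fell by 1.87 ± 0.20, msx3 by 1.19 ± 0.22 and msx1b by 0.71 ± 0.14. Other probe sets differed in size: a second for zic2a had -0.67 (adjusted p = 0.235), and of the 3 for msx3 a second fell by 1.06 and the third had -0.06 (adjusted p = 0.929). Among the 8 falls, the msx2b call was lost without DMSO replicate 2, RA replicate 1 or RA replicate 3 (adjusted p from 0.0685 to 0.0907). Fitting only the RA and DMSO arrays ended the calls of msx2b (0.0731) and lhx9 (0.0550). The RA arrays of lhx9 all lay below log2 4. The single rise, that of the Bmp-related ligand gene gdf6a (0.75 ± 0.20, adjusted p = 0.0306), was lost without any single array except RA replicate 2. With the antagonist at 10 µM lhx9 rose (0.71 ± 0.14, adjusted p = 0.0266), a call lost without any single array except DMSO replicates 2 and 4. At 1 µM limma called 0 of 13, and 5 had an unadjusted p under 0.05.

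Markers of other tissues also moved under RA. Of 5 neural plate markers 2 fell, sox1a and sox2, and their summed intensity was 7788 to 8105 on RA arrays, against 8994 to 9429 on DMSO arrays. Of 6 markers of muscle and paraxial mesoderm 3 fell, msgn1, tbx16 and myf5, with sums of 1506 to 2251 on RA arrays, against 4741 to 6329 on DMSO arrays. Of 4 notochord markers 1 fell and 1 rose, with sums of 1507 to 1701 on RA arrays, against 1868 to 2143 on DMSO arrays. Of the tested markers of the yolk syncytial layer and of blood 1 of 2 fell in each, apoa4b.1 and tal1, and the blood marker gata1a was below log2 4 on all arrays. The part of these shifts in the values of the members was not tested. With the antagonist limma called 0 markers of these lists, with 2 blood and 1 neural plate marker at 10 µM and 1 of each at 1 µM at an unadjusted p under 0.05. The neural plate sum was 8801 to 9509 at 10 µM and 9444 to 11003 at 1 µM.

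The genes whose values ran most like those of a member were found by Pearson's r over the 16 arrays, among 7114 genes. The arrays fall into 4 groups, so that r mainly reads the group differences. Genes picked by r therefore tend to share the direction of their member through the selection itself. Spearman's rho of the genes named next was 0.706 to 0.885. For neurog1 these were dhrs3a (r = 0.932), the secreted ligand gene wnt11 (0.930) and the hindbrain gene hoxb1a (0.912). All 3 were called in the direction of neurog1 with the antagonist at both doses, and they rose under RA by 3.91, 1.89 and 3.35. The wnt11 call at 1 µM was lost when only the 1 µM and DMSO arrays were fitted (adjusted p = 0.0881). For ascl1b they were the stress-response gene gadd45ab (0.886), prkag2a (0.886), which encodes a regulatory subunit of the AMP-activated kinase, and hoxa4a (0.882). For olig2 they were spsb4b (0.941), si:dkey-117n7.5 (0.937) and the angiotensinogen gene agt (0.936), of which spsb4b rose under RA by 0.57 ± 0.12 and agt by 1.07 ± 0.17. For olig3 they were the mesoderm gene tbx16 (0.978), the blood and heart mesoderm gene drl (0.976) and cdc42ep4a (0.975), and a total of 100 genes had an r over 0.9 with olig3, against 4 with neurog1, 0 with ascl1b and 33 with olig2. All 3 fell under RA, tbx16 by 1.25 ± 0.13, drl by 1.92 ± 0.16 and cdc42ep4a by 1.21 ± 0.13.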

How the data were processed

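The authors deposited linear intensity values, 1 for each probe set on each array, made with GCRMA (background correction from probe sequences, normalization between arrays and summary per probe set), per the submitters' processing notes. The sources used here give neither its version nor any further scaling. No scan dates or slides were analysed here, and the number of arrays limits the precision.

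From these, log2 was taken, the 115 control probe sets were left out, and 11843 of 15502 probe sets above log2 4 on at least 4 of 16 arrays were tested. Group means were estimated together by limma 3.58.1 (R 4.3.3; lmFit and eBayes, with 12 residual degrees of freedom), two-sided, with Benjamini-Hochberg adjustment within each of 6 comparisons. A fold against a group with all arrays at or below log2 4 is a bound against log2 4. Replicates are independent samples per the labels. The code was tested on simulated data.

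Gene names came from the platform annotation, brought up to date through Entrez numbers in the gene table of assembly GRCz12tu (10718 of 10802 probe sets with 1 symbol matched). A gene outside the members is represented by its brightest probe set over all arrays. Named were all member probe sets, up to 4 genes per list and comparison with DMSO by adjusted p, the 3 most alike genes per member, cyp26a1 and dhrs3a. The naming of gdf6a, id3, id4, msx2b and the genes that did not pass the filter was decided after their values were seen. The members and lists were chosen with earlier results of these data known. The main tests did not use the replicate numbers. The replicate block was run only as an alternative, and it fits the same effect of a number in all groups. Deviations from group means of same-numbered RA and DMSO arrays correlated at 0.134 to 0.336 over probe sets. All were above 0.1, the rule used for a possible pairing of these groups. Differently numbered arrays ranged from -0.410 to 0.300, and only 2 of the RA arrays matched their own number best, so this pairing is uncertain. In the other comparisons at least 1 pair was at or below 0.1. Alternatives covered normalization, filter, pseudocount, samples, variance, array weights, the replicate block and leaving out each array. A near-identical paralogue can bind the same probes.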

Additional observations from a re-analysis of the deposited data

Results flagged for a closer look

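Of 20 sets of 4 values (5 member probe sets in 4 groups), 1 held an array far from the others. For the first olig3 probe set, replicate 1 of the antagonist at 1 µM had a log2 intensity of 8.84, while the other 3 arrays had 8.05, 8.03 and 7.91. Its gap to the nearest array was 0.851 of the whole range of the group, above Dixon's 95% critical value for 4 values. Chance marks about 1 in 20 such sets.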

How the results depend on the processing

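Of 15 results (5 member probe sets in 3 comparisons with DMSO), 10 kept their direction and their side of the threshold under every alternative that gave a value, and 0 reversed. Under RA the neurog1 difference of 0.76 was called with array weights (0.82), the replicate block (0.76) and without DMSO replicate 2, and ranged from 0.65 to 0.98 with 1 array left out. The ascl1b call was lost after quantile normalization (0.64), and without the filter, with 2 groups only and with a trended robust variance (0.64 each), and ranged from 0.51 to 0.74 with 1 array left out. The second olig3 probe set lost its RA call with 16 added (-0.36) and ranged from -0.87 to -0.70. At 1 µM of the antagonist neurog1 lost its call with only 2 groups fitted (-1.34) and ranged from -1.50 to -1.12, and the second olig3 probe set ranged from 0.70 to 0.99. The stricter filter left out the second olig3 probe set. The cause was not tested for these. The replicate block changed no other call of a member. Of other named genes it gained the calls of ascl1a under RA and of hey2 at 1 µM (0.77, adjusted p = 0.0338), where the numbers were not shown to pair the groups. It gave 804 calls under RA, 49 and 18 with the antagonist at 10 µM and 1 µM, against 681, 47 and 17 without it.

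Over all probe sets, array weights gave 1194 calls for RA vs DMSO (681 otherwise), 255 for 10 µM vs DMSO (47; 46.3% of them higher, against 21.3%) and 1946 for RA vs 10 µM (1048). Fitting 2 groups gave 7 for 1 µM vs DMSO (17 otherwise). Leaving out 1 array gave 547 to 655, 29 to 44 and 9 to 17 calls against DMSO for RA, 10 µM and 1 µM, the lowest without DMSO replicate 1 in each case, and 1 to 3 between the doses. Between the doses the sign turned in 5 uncalled member differences: neurog1 without replicate 2 at 1 µM (0.0291, the highest of a range from -0.327), ascl1b without replicate 1 at 10 µM (0.00601) or replicate 3 at 1 µM (0.0135, range from -0.214), and the first olig3 probe set without replicate 4 at 10 µM (0.0790, range from -0.333) or replicate 1 at 1 µM (0.0473). The uncalled difference of drl at 10 µM turned to -0.00102 without DMSO replicate 3, in a range up to 0.183. Of 53 called results of other named genes 44 stayed called throughout, and of 44 not called 30 stayed so.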
